A study of Rattus norvegicus with 12 samples.

Results

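The Dlk1-Dio3 imprinted miRNA cluster was followed through the small RNA libraries of lumbosacral spinal cord from Wistar rat fetuses on embryonic day 17. Its members were chosen by name, from a list of 49 miRNAs of the cluster, as every row of the miRNA table that carries a listed name with or without an arm suffix (5p or 3p, the side of the hairpin from which the mature strand comes). This gave 89 of the 846 rows in the table, for 48 of the 49 listed miRNAs, and miR-654 had no row. The study set fetuses with anorectal malformations (ARM) induced by ethylenethiourea (ETU) against normal fetuses, with 3 miRNA libraries in each group, numbered replicates 4 to 6 in the labels. All 6 libraries share strain, tissue and age. A group that received ETU and had no malformation is not among the labels, so the chemical and the malformation cannot be told apart in any difference reported here. The labels give neither litters nor pools, so every p-value measures the spread between these libraries, which may be technical. In whole tissue, fewer cells of a type cannot be told apart from less RNA per cell.

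The Dlk1-Dio3 region is an imprinted domain, in which the parental origin of a chromosome decides which genes are read. The protein-coding genes Dlk1, Rtl1 and Dio3 are expressed from the paternal chromosome, while the noncoding RNAs Meg3, Rian and Mirg and the miRNAs among them are expressed from the maternal one. The miRNAs are known for high levels in the embryo, placenta and nervous system. In rat neurons the distal miR-379 to miR-410 stretch is known to be induced by neuronal activity through the transcription factor Mef2, and its member miR-134 limits the size of dendritic spines.

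RefSeq gave a mature sequence for 86 of the 89 rows, 17 to 25 bases long with a median of 22.0, and miR-127-5p, miR-136-5p and miR-679 were not matched. On the GRCr8 build the matched rows lie on chromosome 6 between 134298094 and 134579828, a span of 281735 bases, with 83 rows on the plus strand. The other 3, both arms of miR-299b and miR-409b, are on the minus strand. The cluster falls into 4 stretches. The Meg3 side, from miR-770 to miR-665, spans 134298094 to 134321754 and has 11 rows. The Rtl1-antisense side spans 134326468 to 134331404 and has 9 rows, from miR-431, miR-433, miR-127, miR-434 and miR-136, which are read from the strand opposite to Rtl1. The middle stretch of miR-341 and miR-370 spans 134347871 to 134354559 and has 3 rows. A gap of 188900 bases separates it from the distal stretch of miR-379 to miR-410, which spans 134543460 to 134579828 and has 66 rows.

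The 12 rows with the highest level are shown first, because they hold most of the reads of the cluster. They are given from 5′ to 3′ in the order of their level, with the seed (bases 2 to 8, which pair with target RNAs) in capitals.
miR-127-3p: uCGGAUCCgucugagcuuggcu
miR-379-5p: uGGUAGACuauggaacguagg
miR-434-5p: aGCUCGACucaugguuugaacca
miR-434-3p: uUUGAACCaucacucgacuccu
miR-300-3p: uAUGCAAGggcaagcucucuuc
miR-370-3p: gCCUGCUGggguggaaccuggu
miR-341: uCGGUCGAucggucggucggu
miR-541-5p: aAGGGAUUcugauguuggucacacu
miR-323-3p: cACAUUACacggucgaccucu
miR-134-5p: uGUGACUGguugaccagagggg
miR-433-3p: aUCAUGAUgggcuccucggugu
miR-411-5p: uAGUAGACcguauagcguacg
No seed is shared among these 12, so that the most abundant members each present a different seed. The tested rows whose ARM and normal libraries did not overlap are shown next, because their values are given one by one below.
miR-540-3p: aGGUCAGAggucgauccugggc
miR-770-3p: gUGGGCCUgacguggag
miR-431: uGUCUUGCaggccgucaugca

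Only 5 seeds occurred in more than 1 member row, and the rows that share them are shown to set related sequences beside their levels. Levels are CPM, counts relative to a library's total on TMM-scaled size, which corrects for composition, and each read stands for 1 mature strand, so they were not divided by length.
miR-494-5p: aGGUUGUCcguguugucuucuc
miR-496-5p: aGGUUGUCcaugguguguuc
miR-410-5p: aGGUUGUCugugaugaguucg
miR-381-3p: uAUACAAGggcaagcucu
miR-539-3p: cAUACAAGgguaauuucuuuuc
miR-299a-3p: uAUGUGGGacgguaaaccgcu
miR-299b-3p: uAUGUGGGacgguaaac
miR-376b-5p: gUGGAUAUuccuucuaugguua
miR-376c-5p: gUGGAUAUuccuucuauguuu
The fifth shared seed, GGUUUAC, belongs to miR-299a-5p and miR-299b-5p. Summed over its 3 rows, the seed GGUUGUC had 11.6 CPM in ARM and 13.6 CPM in normal cord. The seed AUACAAG had 46.5 CPM in ARM and 54.3 CPM in normal cord, and AUGUGGG, the highest of them, 142.5 CPM in ARM and 143.8 CPM in normal cord. The others were UGGAUAU, with 31.4 CPM in ARM and 30.5 CPM in normal cord, and GGUUUAC, with 6.14 CPM in ARM and 5.25 CPM in normal cord. In each of these sets but GGUUGUC, 1 row supplied nearly all of the level.

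A few member sequences are so alike that reads could be assigned to either. The sources used here do not say how the authors' counting split them. Over the 18 bases of miR-381-3p as RefSeq gives it, miR-300-3p differs at 1 position (G4A, miR-300-3p first, counted from the 5′ end), which lies in the seed. The table gave miR-300-3p a mean of 3070 CPM over the 6 libraries and miR-381-3p 1.14 CPM. Over 17 shared bases miR-299a-3p and miR-299b-3p are identical, and their rows had 143.1 and 0.0808 CPM. The miR-376c-5p and miR-376b-5p sequences differ at 1 of 21 compared bases (U19G), and their rows had 0.229 and 30.7 CPM. In these 3 pairs nearly all of the reads stood in 1 row. In another pair, miR-379-3p and miR-411-3p, both rows held reads, 101.3 and 222.7 CPM, and the sequences differ at 1 of 20 compared bases when miR-379-3p is read from its second base. The levels of all these rows are uncertain to the extent that reads could be assigned to either.

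Beyond the seeds, the letters GGUCCAC recurred in 5 members of the distal stretch. They were found by counting all runs of this length in the member sequences, on the RNA strand as printed, so the choice follows the data. The run overlaps UCCACU, another of the most frequent ones. The capitals mark it.
miR-379-3p: cuauguaacauGGUCCACuaac
miR-411-3p: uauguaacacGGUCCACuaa
miR-380-3p: uauguaguauGGUCCACaucu
miR-758-3p: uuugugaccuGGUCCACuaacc
miR-412-3p: cuucaccuGGUCCACuagccgu
It occurred in 5 of 86 member sequences (5.81%), and in 5 of the 693 mature rat miRNA names of the RefSeq table (0.722%), the same 5. It starts at base 9 in miR-412-3p, at base 11 in miR-411-3p, miR-380-3p and miR-758-3p, and at base 12 in miR-379-3p, outside the seed in every case. Their mean levels differed, from 9.0 CPM for miR-412-3p to 443.0 CPM for miR-380-3p.

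Library totals ran from 12262705 to 13233949 counts in ARM and from 11526673 to 12856194 counts in normal cord. The most abundant row of the table was miR-9a-5p, which neural progenitors express highly, with 32.6% to 33.1% of counts in ARM and 31.4% to 32.3% in normal libraries. Summed over 5 neural markers the level was 346320.2 to 367256 CPM in ARM and 338494 to 351133 CPM in normal cord. Most of this sum was miR-9a-5p, so it says little about the other markers. All 5 had counts in every library, which is the check of the tissue on the labels. The 3 listed blood markers that had a row, miR-451-5p and both arms of miR-144, were at 0 in all libraries. Of the 3 microglia and leukocyte markers both arms of miR-142 were at 0, and miR-223-3p had counts in every library, at 2.56 to 3.04 CPM in ARM and 1.55 to 2.73 CPM in normal cord. Of the 7 epithelial markers 6 had counts in all libraries, with sums of 87.4 to 603.8 CPM in ARM and 111.4 to 170.8 CPM in normal cord. The 4 skeletal muscle markers summed to 48.5 to 99.4 CPM in ARM and 28.5 to 103.3 CPM in normal cord.

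Levels along the cluster ran from 0 to 23141 CPM. Of the 89 rows, 13 averaged at least 1000 CPM over the 6 libraries, 28 lay between 100 and 1000, 21 between 10 and 100, 17 between 1 and 10, and 8 under 1. The remaining 2, miR-299b-5p and miR-409b, had 0 counts in all 6 libraries, where a floor of 3 counts corresponds to 0.226 to 0.256 CPM per library. A single row, miR-127-3p, made up 33.9% of the level of the cluster, the 12 highest rows 79.9%, and 21 rows were enough to reach 90%. The cluster was therefore dominated by few strands, and most rows were minor.

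**Figure D1:**
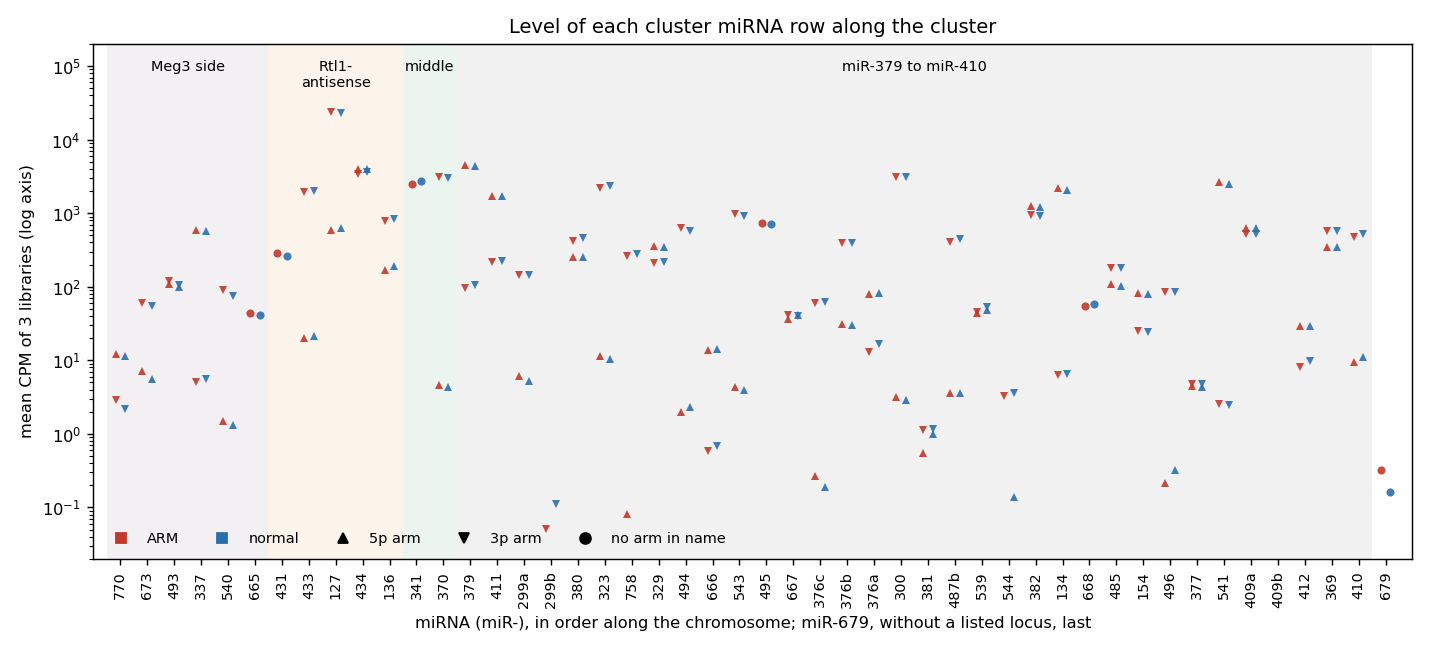
Mean level of each member row in CPM on a log axis, in chromosomal order, for 3 ARM and 3 normal libraries; triangles point up for the 5p arm and down for the 3p arm, and rows at 0 are not drawn. The miR-127-3p row stands highest at 23507 CPM in ARM and 22775 CPM in normal cord, and the ARM and normal points nearly coincide for most rows.

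The stretches differed in level within each library. The median row averaged 42.4 CPM on the Meg3 side, where miR-337-5p was highest at 582.2 CPM. It averaged 809.6 CPM on the Rtl1-antisense side, 2616 CPM in the middle stretch and 53.1 CPM in the distal stretch. Of the rows at 1000 CPM or more, 4 lay on the Rtl1-antisense side, 2 in the middle, 7 in the distal stretch and none on the Meg3 side. The 9 rows of the Rtl1-antisense side held 50.7% of the counts of the cluster, the 66 distal rows 39.5%, the 3 middle rows 8.34% and the 11 rows of the Meg3 side 1.49%.

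Summed over its arms, miR-379 at the near end of the distal stretch had 4569 ± 349 CPM in ARM and 4440 ± 272 CPM in normal cord (SD, n = 3 each). Its neighbour miR-411 had 1945 ± 132 CPM in ARM and 1918 ± 153 CPM in normal cord. The next hairpin, miR-299a, was much lower, with 148.6 ± 14.5 CPM in ARM and 149.0 ± 10.1 CPM in normal cord. High and low hairpins thus alternated along a stretch that is thought to be transcribed together. Of the 3 miR-376 hairpins, miR-376b had 420.2 ± 30.1 CPM in ARM and 428.4 ± 44.5 CPM in normal cord. The miR-376c hairpin had 59.9 ± 4.81 CPM in ARM and 61.8 ± 9.74 CPM in normal cord, and miR-376a had 91.6 ± 13.3 CPM in ARM and 99.5 ± 8.54 CPM in normal cord. This family is known in mouse and human brain for A-to-I editing of its seeds. At the far end, miR-541 had 2638 ± 145 CPM in ARM and 2504 ± 243 CPM in normal cord, miR-412 had 37.9 ± 3.44 CPM in ARM and 38.7 ± 4.13 CPM in normal cord, and the last hairpin, miR-410, had 490.1 ± 38.6 CPM in ARM and 525.8 ± 50.3 CPM in normal cord.

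The question of whether the cluster as a whole takes another part of the miRNA pool in ARM was addressed with its share of counts. The 89 rows took 7.39%, 6.69% and 6.33% of counts in ARM replicates 4 to 6, against 7.28%, 6.74% and 6.52% in normal replicates 4 to 6. The ranges overlapped throughout, and replicate 4 was the highest library in either group. The mean share was 6.80% ± 0.537 in ARM and 6.85% ± 0.392 in normal cord (SD, n = 3 each), a difference of -0.045 percentage points (two-sided exact permutation test, p = 0.9, where 3 against 3 allows no p below 0.1). The 95% Wilson interval of a single library was narrow, 6.32% to 6.35% in ARM replicate 6 for example, so that counting error was small beside the spread between libraries. Leaving out ARM replicate 6 gave a difference of 0.190 percentage points and leaving out ARM replicate 4 gave -0.338 percentage points, so the sign of this small difference depended on single libraries.

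In none of the 4 stretches was a difference detectable. The Rtl1-antisense side took 3.84%, 3.38% and 3.14% of counts in the ARM libraries, against 3.69%, 3.40% and 3.30% in the normal libraries (exact permutation p = 0.9). The distal stretch took 2.83%, 2.58% and 2.66% in the ARM libraries, against 2.93%, 2.65% and 2.53% in the normal libraries (exact permutation p = 1.0). In both stretches the libraries of the groups were interleaved. The middle stretch took 0.602%, 0.624% and 0.438% in the ARM libraries, against 0.563%, 0.591% and 0.595% in the normal libraries (exact permutation p = 1.0). Here ARM replicate 6 was the lowest library, and without it the remaining ARM libraries were both above all normal ones, with a difference of 0.0303 percentage points. The Meg3 side took 0.116%, 0.101% and 0.0951% in the ARM libraries, against 0.102%, 0.0979% and 0.0947% in the normal libraries (exact permutation p = 0.6). Adjusted over the 4 stretches, every p was 1.0.

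**Figure D2:**
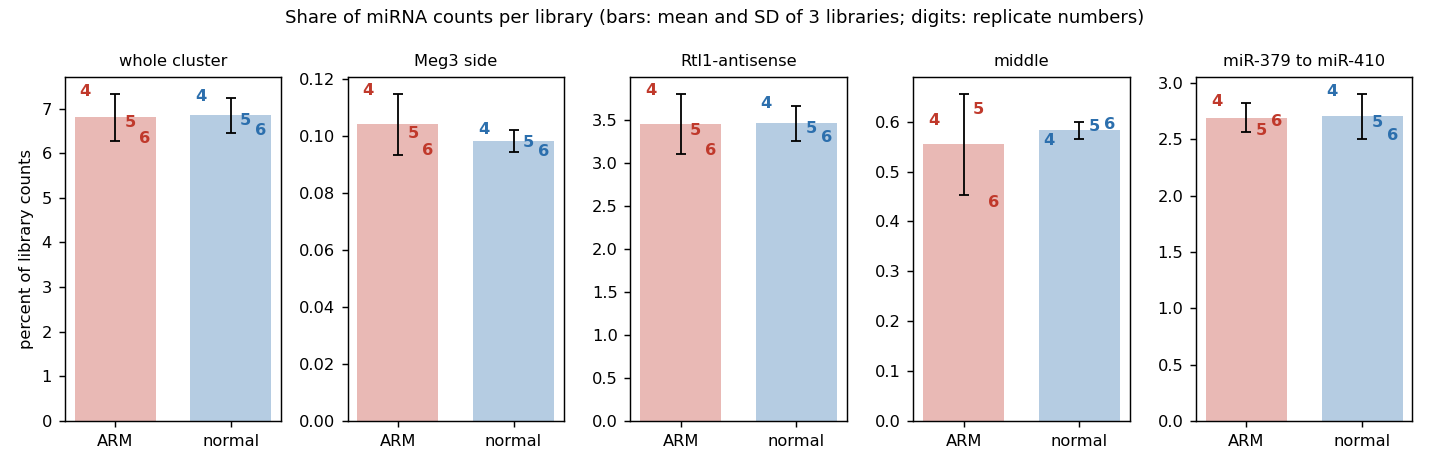
Percent of a library's miRNA counts taken by the whole cluster and by each of its 4 stretches, with ARM left of normal; bars are means of 3 libraries, error bars are SD, and digits are the replicate numbers of the libraries. In the whole cluster the library numbered 4 is highest in both groups, at 7.39% in ARM and 7.28% in normal cord, and the groups overlap in every panel.

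Each row was then compared in a fit over all 525 miRNAs that passed a filter on low counts. Of the 89 member rows 79 passed it, and 10 had too few counts, with 9.5 counts per library or fewer on average. Those were both arms of miR-299b, miR-409b, miR-679 and the minor strands miR-758-5p, miR-666-3p, miR-376c-5p, miR-381-5p, miR-544-5p and miR-496-5p. No member passed an adjusted p of 0.05 in edgeR's quasi-likelihood test with Benjamini-Hochberg adjustment, and neither did any other miRNA of the table (0.0%). The smallest adjusted p among members was 0.633. At an unadjusted p under 0.05 there was 1 member of 79, miR-540-3p, against 31 of 525 miRNAs (5.9%). It was higher in ARM, as were 24 of those 31, or 4.57% of all tested miRNAs. DESeq2 also called none of the members past an adjusted p of 0.05, and it called 7 miRNAs over the whole table. Log2 fold changes, ARM minus normal, were positive for 39 members and negative for 40, with a median of -0.0019, against a median of 0.0029 over all tested miRNAs. They ran from -0.35 for miR-376a-3p to 0.42 for miR-770-3p, and that of miR-376a-3p was -0.08 without normal replicate 6.

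The size of the members' differences was bounded by their intervals. Of the 79 members 74 (93.7%) had a log2 fold change within ±0.25, against 79.0% of all tested miRNAs. For 53 members (67.1%) the whole 95% interval lay within ±0.5, against 57.3% of all tested miRNAs. For the others a change of that size was not detectable as present or absent at this depth and spread. Among rows with a mean count of at least 100, the SD within groups on the log2 scale had a median of 0.13 over 63 members and 0.12 over 287 other miRNAs.

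**Figure D3:**
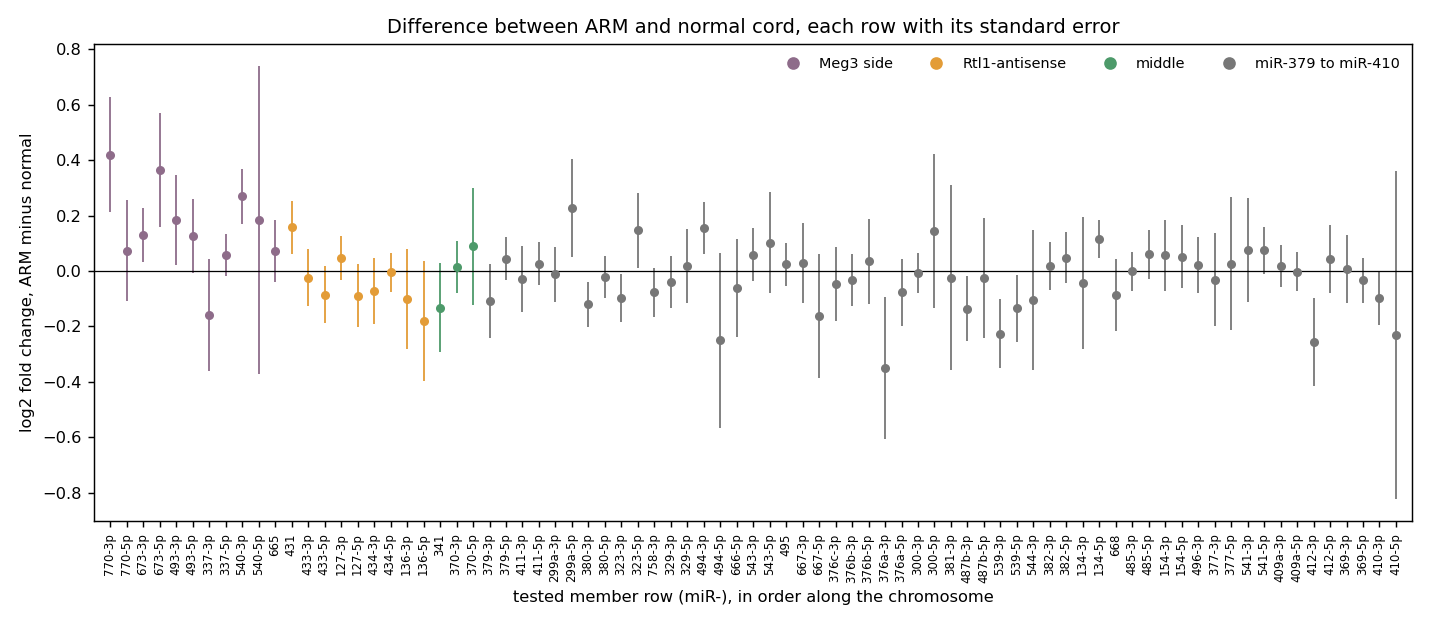
Log2 fold change, ARM minus normal, of the 79 tested member rows in chromosomal order, coloured by stretch, with the standard error as bars. The points lie between -0.35 and 0.42, and 10 of the 11 rows of the Meg3 side are above 0.

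The most abundant member, miR-127-3p, is known in mouse for lying opposite to Rtl1, a gene needed in the placenta, and for cleaving its mRNA. It had 26199.7, 22532 and 21791 CPM in ARM replicates 4 to 6, against 23786, 22532 and 22007 CPM in normal replicates 4 to 6. The groups overlapped, with both the highest and the lowest library in ARM. It averaged 23507 ± 2361 CPM in ARM and 22775 ± 914 CPM in normal cord (SD, n = 3 each), a log2 fold change of 0.05 with a standard error of 0.08 and a 95% interval of -0.14 to 0.23. Its neighbour miR-434 is the only hairpin with both strands among the 12 highest rows. The 5p strand had 4333, 3992 and 3729 CPM in the ARM libraries, against 3888, 4111 and 4093 CPM in the normal libraries. The 3p strand had 3493, 3207 and 3606 CPM in the ARM libraries, against 4311, 3337 and 3193 CPM in the normal libraries. In both strands the groups overlapped, and normal replicate 4 held the highest 3p value. The miR-433-3p row of the same side had 2147, 1828 and 1916 CPM in the ARM libraries, against 2281, 1844 and 1868 CPM in the normal libraries, also with overlap.

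In the middle stretch, miR-370-3p had 3155, 3387 and 2686 CPM in the ARM libraries, against 2893, 3191 and 3055 CPM in the normal libraries. The rodent miRNA miR-341 had 2849, 2797 and 1843 CPM in the ARM libraries, against 2639, 2650.2 and 2918 CPM in the normal libraries. In both rows ARM replicate 6 was the lowest of the 6 libraries, clearly so for miR-341. The log2 fold change of miR-341 was -0.13 with a standard error of 0.16, and without ARM replicate 6 it was 0.04.

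In the distal stretch, miR-379-5p had 4701, 4076 and 4636 CPM in the ARM libraries, against 4626, 4205 and 4172 CPM in the normal libraries. The spine regulator miR-134-5p had 2291, 2052 and 2354 CPM in the ARM libraries, against 2059, 2109.8 and 2010.2 CPM in the normal libraries. Of the ARM libraries 2 were above all normal ones and replicate 5 was not, and the log2 fold change of 0.12 (standard error 0.07) did not pass the test. The miR-541-5p row had 2702, 2469.6 and 2735 CPM in the ARM libraries, against 2758, 2471 and 2275 CPM in the normal libraries. The miR-323-3p row had 2156, 2122 and 2308 CPM in the ARM libraries, against 2646, 2226 and 2178 CPM in the normal libraries. Both rows overlapped between groups, and their highest library was in normal replicate 4. The miR-300-3p row had 3313, 3078 and 2792 CPM in the ARM libraries, against 3048, 3116 and 3073 CPM in the normal libraries. The miR-411-5p row had 1845, 1616 and 1712 CPM in the ARM libraries, against 1829.9, 1649.98 and 1598 CPM in the normal libraries. The ARM libraries of miR-300-3p reached both above and below the normal ones, and those of miR-411-5p overlapped with them. Over the 12 most abundant rows the log2 fold change lay between -0.13 for miR-341 and 0.12 for miR-134-5p.

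The groups were separate in 3 of the 79 tested members, all with the ARM libraries above the normal ones, against 5.33% of all tested miRNAs in that direction, and in none with the ARM libraries below, against 3.24%. The first, miR-540-3p of the Meg3 side, had 94.6, 80.1 and 97.2 CPM in the ARM libraries, against 72.4, 79.1 and 74.1 CPM in the normal libraries. ARM replicate 5 was above the highest normal library only narrowly. Its log2 fold change was 0.27 with a standard error of 0.10 and a 95% interval of 0.035 to 0.504, and it did not pass the test (edgeR quasi-likelihood test, unadjusted p = 0.0297, adjusted p = 0.633). When 1 library was left out, its unadjusted p stayed under 0.05 in 2 of the 6 fits, those without ARM replicate 5 and without normal replicate 5. Other members came under that limit in 2 of these fits, miR-493-5p and miR-770-3p without ARM replicate 6, and miR-412-3p and miR-539-3p without normal replicate 6, and without replicate 4 of either group there were 0. The second, miR-770-3p, comes from the hairpin within Meg3 and had 3.17, 3.15 and 2.36 CPM in the ARM libraries, against 2.13, 2.23 and 2.12 CPM in the normal libraries. Its level is low, and the log2 fold change of 0.42 (standard error 0.21) had an adjusted p of 0.918. The third, miR-431, which promotes axon growth in injured mouse sensory neurons, had 329.7, 268.6 and 268.3 CPM in the ARM libraries, against 256.2, 259.1 and 261.7 CPM in the normal libraries. Here ARM replicate 4 stood far above the rest, and the log2 fold change of 0.16 (standard error 0.10) had an adjusted p of 0.934 and was 0.065 without that library. A share of 3 in 79 is no higher than the share among all miRNAs. An untested row, miR-758-5p, had 1 count in each ARM library and 0 in each normal library, which is under the floor of 3 counts per library.

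The next smallest unadjusted p in the upward direction belonged to miR-134-5p, given above, and to miR-673-5p, with 9.20, 6.23 and 6.24 CPM in the ARM libraries, against 5.72, 4.85 and 6.28 CPM in the normal libraries. Its log2 fold change was 0.36 with a standard error of 0.21, and 0.16 without ARM replicate 4, its highest library. In the downward direction they belonged to miR-539-3p, miR-412-3p, miR-380-3p, miR-376a-3p and miR-487b-3p, all of the distal stretch. The miR-539-3p row had 42.7, 44.1 and 49.5 CPM in the ARM libraries, against 60.5, 53 and 45.9 CPM in the normal libraries. The miR-412-3p row had 8.82, 7.44 and 8.35 CPM in the ARM libraries, against 11.3, 9.92 and 8.24 CPM in the normal libraries. In both, the lowest normal library lay among the ARM libraries. The miR-380-3p row had 443.6, 433.4 and 396.3 CPM in the ARM libraries, against 506.0, 442.6 and 436.2 CPM in the normal libraries. The miR-487b-3p row had 418.3, 415.3 and 373.8 CPM in the ARM libraries, against 523.4, 393.3 and 410.6 CPM in the normal libraries. The miR-376a-3p row had 13.8, 15.2 and 10.1 CPM in the ARM libraries, against 15.8, 11.8 and 22.4 CPM in the normal libraries. All of these overlapped, and their log2 fold changes of -0.12 to -0.35 were within 2 standard errors of 0.

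Near the filter on low counts, the members just inside were miR-381-3p with a mean of 14.0 counts per library, miR-540-5p with 17.3 and miR-494-5p with 26.5. Their log2 fold changes were -0.02, 0.19 and -0.25, with standard errors of 0.33, 0.56 and 0.32, so that little can be said of them at this depth. The members just outside were miR-381-5p with a mean of 9.5 counts, miR-666-3p with 7.83 and miR-496-5p with 3.33.

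By stretch, 10 of 11 rows of the Meg3 side had a log2 fold change above 0 (median 0.13), while 2 of 9 on the Rtl1-antisense side, 2 of 3 in the middle and 25 of 56 in the distal stretch were positive, with medians of -0.07, 0.01 and -0.01. Over all tested miRNAs 50.5% were positive. The Meg3 side rested partly on ARM replicate 4, in which all of its 11 rows were above their mean over the 6 libraries. Without that library 8 of 11 were positive and the median was 0.03, while without ARM replicate 6 all 11 were positive and the median was 0.20. By arm, 21 of 35 tested 5p rows and 15 of 39 tested 3p rows were positive, with medians of 0.03 and -0.02. These rows come from shared transcripts and libraries, so the counts are descriptions.

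Many members of the cluster were high in the same libraries. Of the 79 tested members 30 were highest in ARM replicate 4 and 31 in normal replicate 4, against 19.2% and 23.4% of all tested miRNAs. The median log2 deviation of members from their mean over the 6 libraries was 0.09, -0.04 and -0.02 in ARM replicates 4 to 6, and 0.10, -0.04 and -0.08 in normal replicates 4 to 6. Over the tested miRNAs outside the cluster these medians stayed within ±0.014. The stretches did not all follow in normal replicate 4. There the median was 0.12 both on the Rtl1-antisense side and in the distal stretch. It was -0.03 on the Meg3 side and -0.08 in the middle stretch. ARM replicate 4 had the largest total count of the 6 libraries and normal replicate 4 the smallest. The summed mesenchyme and cartilage markers were lowest in ARM replicate 4, at 3882 CPM against 4662 to 5086 CPM in the other ARM libraries, and the endothelial ones too, at 9424 CPM against 10277 to 10731 CPM. In normal replicate 4 the same lists had 4686 and 10216 CPM, also the lowest of the normal libraries, which reached 4867 and 10752 CPM. Other lists did not move alike in the replicates numbered 4. The neural sum was 355801 CPM in ARM replicate 4, between the other ARM libraries, and 338494 CPM in normal replicate 4, the lowest of the 6 libraries. The skeletal muscle sum was 69.3 CPM in ARM replicate 4, between the other ARM libraries, and 103.3 CPM in normal replicate 4, the highest of the 6. The part of these cell types in the level of the cluster was not tested.

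ARM replicate 6 was the lowest library for 24 of the 79 tested members, against 21.7% of all tested miRNAs, and the highest for 9. In it 47 members lay below their mean over the 6 libraries and 32 above. The rows given here were named after their values were seen. The miR-136-3p row had 912.5, 866.3 and 564.2 CPM in the ARM libraries, against 915.9, 733.2 and 865.7 CPM in the normal libraries. The miR-136-5p row had 211.6, 173.7 and 114.8 CPM in the ARM libraries, against 198.5, 159.4 and 208.8 CPM in the normal libraries. With miR-341, both arms of this hairpin thus had their lowest value in the same library. The miR-127-5p row did too, with 643.1, 651.0 and 486.2 CPM in the ARM libraries, against 611.9, 628.2 and 653.4 CPM in the normal libraries, while its partner miR-127-3p was only slightly lower there. The most variable tested member was miR-410-5p, with 6.78, 4.37 and 17.0 CPM in the ARM libraries, against 5.03, 18.3 and 9.63 CPM in the normal libraries, an overlap with no common order. ARM replicate 6 also had the lowest epithelial marker sum of the 6 libraries, 87.4 CPM, and the lowest TMM factor, 0.967, and their part in these values was not tested.

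**Figure D4:**
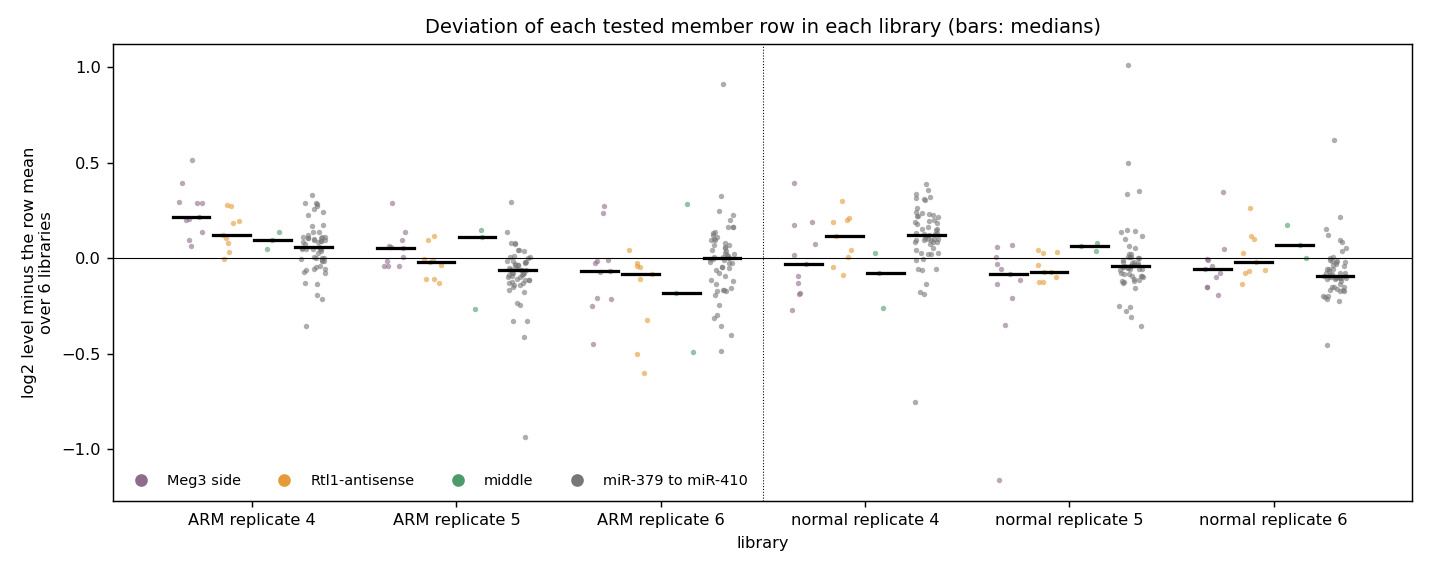
Log2 level of each tested member row minus its mean over the 6 libraries, for ARM replicates left of normal replicates, coloured by stretch, with black bars at the medians. Most members sit above 0 in replicate 4 of both groups, with medians of 0.09 in ARM and 0.10 in normal cord over the whole cluster. In normal replicate 4 the medians of the Meg3 side and the middle stretch are below 0, at -0.03 and -0.08. The median of the middle stretch is at -0.18 in ARM replicate 6.

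The ratio of the 2 arms of a hairpin within a library needs no scaling by depth. It was computed as log2(5p/3p), with 0.5 added to both counts, for each hairpin whose arms both averaged at least 10 counts, and 34 of the 152 such hairpins of the table belong to the cluster. In 21 of the 34 the 3p arm was the higher one and in 13 the 5p arm, a 5p share of 38.2%, against 59.3% of the 118 hairpins outside the cluster. The arms lay within 2-fold of each other in 11 hairpins (32.4%), against 16.1% outside the cluster. They differed by over 100-fold in 9 of the 34, against 25 of the 118 outside it. In 29 of 34 the same arm was higher in all 6 libraries, against 108 of the 118 outside the cluster. A further 7 hairpins of the cluster had an arm with too few counts.

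The most one-sided hairpins had ratios of about 1000. The miR-541 hairpin gave almost only its 5p strand, with a log2 ratio of 9.98 ± 0.15 in ARM and 9.98 ± 0.08 in normal cord (SD, n = 3 each). The miR-300 hairpin gave almost only its 3p strand, with -9.95 ± 0.35 in ARM and -10.07 ± 0.29 in normal cord. Reads of miR-300-3p and miR-381-3p could be assigned to either, so this ratio is uncertain to that extent. The same holds, with their own near-identical partners, for the ratios of miR-379, miR-411 and miR-299a below. Toward the 5p side miR-541 was followed by miR-134, with 8.50 ± 0.26 in ARM and 8.34 ± 0.27 in normal cord, and by miR-337, with 6.90 ± 0.34 in ARM and 6.66 ± 0.04 in normal cord. The next were miR-379, with 5.52 ± 0.03 in ARM and 5.38 ± 0.17 in normal cord, and miR-411, with 2.97 ± 0.02 in ARM and 2.92 ± 0.13 in normal cord. Neighbouring hairpins thus often differed in their main arm, as miR-411 and miR-299a did, the second with -4.53 ± 0.14 in ARM and -4.77 ± 0.13 in normal cord. On the 3p side miR-300 was followed by miR-370, with -9.36 ± 0.47 in ARM and -9.43 ± 0.15 in normal cord, and by miR-494, with -8.32 ± 0.13 in ARM and -7.98 ± 0.47 in normal cord. Then came miR-543, with -7.81 ± 0.26 in ARM and -7.84 ± 0.07 in normal cord, and miR-323, with -7.57 ± 0.16 in ARM and -7.80 ± 0.16 in normal cord.

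Several hairpins gave both strands at nearly equal level. In miR-434 the log2 ratio was 0.31, 0.32 and 0.05 in ARM replicates 4 to 6, against -0.15, 0.30 and 0.36 in normal replicates 4 to 6, so that in normal replicate 4 the 3p strand was the higher one. In miR-493 it was -0.22, -0.08 and -0.12 in the ARM libraries, against 0.18, -0.20 and -0.22 in the normal libraries. In miR-409a it was 0.21, 0.19 and 0.37 in the ARM libraries, against 0.19, 0.41 and 0.23 in the normal libraries. In miR-434 and miR-493 the higher arm changed between libraries, and in miR-409a it did not.

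No difference in arm ratio between ARM and normal cord passed the test. None of the 34 passed an adjusted p of 0.05 in limma, fitted over all 152 hairpins with Benjamini-Hochberg adjustment, and no hairpin of the table did (0.0%). At an unadjusted p under 0.05 there were 0 of the 34, against 5 of 152 (3.29%). In none of the 34 were the groups separate, against 4.61% of all hairpins with the ratio higher in ARM and 3.29% with it lower. The differences, ARM minus normal, ran from -0.34 to 0.29 on the log2 scale with a median of 0.05, and the 95% interval had a median width of ±0.34. The smallest unadjusted p was that of miR-323, whose ratio was -7.75, -7.45 and -7.51 in the ARM libraries, against -7.97, -7.79 and -7.64 in the normal libraries, a difference of 0.23 (limma, unadjusted p = 0.111, adjusted p = 0.866). The next were miR-412, with 1.90, 1.97 and 1.69 in the ARM libraries, against 1.51, 1.46 and 1.72 in the normal libraries (limma, adjusted p = 0.866), and miR-299a, with a difference of 0.24 (limma, adjusted p = 0.866). In miR-323 and miR-412 1 ARM library lay within the normal range.

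**Figure D5:**
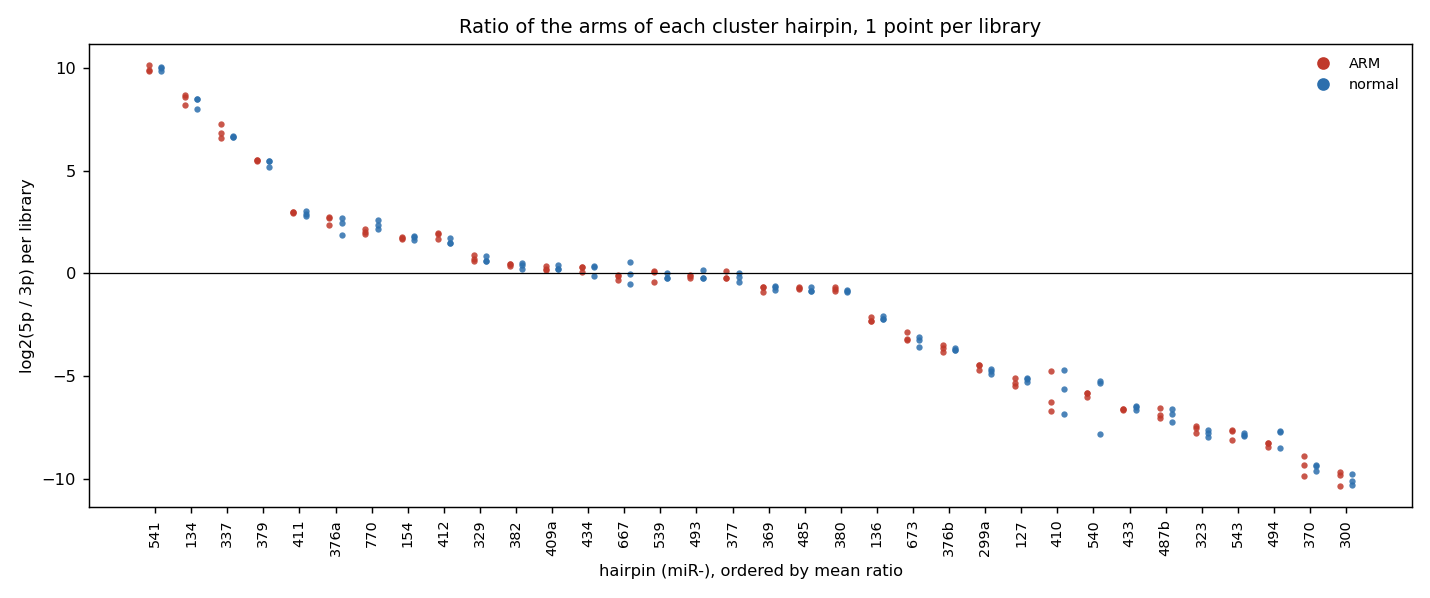
Log2 ratio of 5p to 3p counts for the 34 cluster hairpins with enough counts in both arms, ordered by their mean ratio, with 1 point per library and ARM left of normal. Ratios run from 9.98 for miR-541 to -10.01 for miR-300, and the ARM and normal points overlap in every hairpin.

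The strand that is the higher one began with A or U more often than with C or G, as did the lower one. Among the 32 hairpins with a RefSeq sequence for both arms, the higher strand began with U in 13, with A in 12, with C in 4 and with G in 3. The lower strand began with A in 15, with U in 7, with C in 7 and with G in 3. A first U is known to favour loading into Argonaute, the protein that holds the guide strand, and these counts were not tested.

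Some members share a seed with miRNAs that are not on the list of members, shown here because the seed is the part that pairs with targets. The first of each pair is the member.
miR-329-3p: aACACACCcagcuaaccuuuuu
miR-362-3p: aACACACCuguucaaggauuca
miR-377-5p: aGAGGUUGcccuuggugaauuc
miR-672-5p: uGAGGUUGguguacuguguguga
miR-410-3p: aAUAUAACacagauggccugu
miR-344b-1-3p: gAUAUAACcaaagcccgacugu
The miR-329-3p row had 211.6 ± 10.6 CPM in ARM and 217.8 ± 22.4 CPM in normal cord, and miR-362-3p of the X chromosome 24.7 ± 5.24 CPM in ARM and 28.0 ± 0.866 CPM in normal cord. The seed GAGGUUG came mainly from outside the cluster, since miR-377-5p had 4.41 ± 0.62 CPM in ARM and 4.34 ± 1.27 CPM in normal cord, and miR-672-5p 400.9 ± 17.5 CPM in ARM and 395.8 ± 29.2 CPM in normal cord. The seed AUAUAAC came mainly from the cluster, with 480.7 ± 40.5 CPM in ARM and 514.8 ± 55.1 CPM in normal cord for miR-410-3p, and 14.7 ± 0.491 CPM in ARM and 16.1 ± 2.39 CPM in normal cord for miR-344b-1-3p. Another 2 seeds were shared, ACAUAGA of miR-376c-3p with miR-741-5p, which had no counts, and AGGUCAC of miR-370-5p with miR-1193-3p.

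The miR-1193-3p row is not on the list of members but lies within the same interval, as do 11 other rows of the table. It had 100.8 ± 7.41 CPM in ARM and 95.4 ± 7.59 CPM in normal cord, miR-6331 had 41.1 ± 2.89 CPM in ARM and 43.8 ± 4.41 CPM in normal cord, and miR-1188-5p had 14.2 ± 3.59 CPM in ARM and 13.7 ± 0.534 CPM in normal cord. None of these 3 passed the test, with adjusted p-values of 0.978 to 0.984 (edgeR quasi-likelihood test). Of the 7 rows on the opposite strand, 6 had 0 counts in every library and miR-3544 had 0.571 ± 0.299 CPM in ARM and 0.931 ± 0.377 CPM in normal cord.

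The host RNA of the first stretch, Meg3, was measured in the separate lncRNA libraries of the study, 3 from ARM and 3 from normal cord, numbered 1 to 3. Their short names recur among the miRNA libraries, which does not establish that they hold the same RNA. The 12 rows named RGD1566401, the older symbol of Meg3, summed to 20418, 18472 and 24194 CPM in ARM replicates 1 to 3, against 21249, 21016 and 19348 CPM in normal replicates 1 to 3. The groups overlapped, with means of 21028 ± 2909 CPM in ARM and 20538 ± 1037 CPM in normal cord (SD, n = 3 each). Of the 10 rows with enough counts, edgeR's quasi-likelihood test called 0 at the adjusted threshold, against 0.0515% of 13584 lncRNA rows. Their log2 fold changes were positive in 8 and negative in 2, with a median of 0.04 against 0.0036 over all lncRNA rows. At an unadjusted p under 0.05 there were 2 of the 10, both higher in ARM, against 1.61% of all tested lncRNA rows in that direction. In both the groups were separate, with all ARM libraries above the normal ones, against 3.87% of all tested lncRNA rows. The row RGD1566401.o had 129.3, 49.0 and 138.5 CPM in ARM replicates 1 to 3, against 43.9, 37.6 and 47.3 CPM in normal replicates 1 to 3. ARM replicate 2 stood close to the normal libraries, and the log2 fold change of 1.30 with a standard error of 0.38 did not pass the test (edgeR quasi-likelihood test, unadjusted p = 0.0115, adjusted p = 1.00). The row RGD1566401.g had 109.97, 126.3 and 143.2 CPM in ARM replicates 1 to 3, against 95.9, 96.4 and 97.1 CPM in normal replicates 1 to 3. Its log2 fold change was 0.39 with a standard error of 0.13 (edgeR quasi-likelihood test, unadjusted p = 0.0194, adjusted p = 1.00). When 1 library was left out, the unadjusted p stayed under 0.05 in 6 of 6 fits for RGD1566401.o and in 3 of 6 for RGD1566401.g. Both are minor rows beside RGD1566401.b, which had 12769, 11444 and 15855 CPM in ARM replicates 1 to 3, against 13252, 13036 and 12412 CPM in normal replicates 1 to 3. The rows are transcripts of 1 gene, and the sources used here do not say how reads were divided among them.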

How the data were processed

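Small RNA was sequenced from lumbosacral spinal cord in 3 ARM and 3 normal libraries. The miRNA table deposited by the authors holds read counts per mature miRNA as whole numbers. It also holds TPM, per the file headers, equal to the share of a row in the library's counts. The lncRNA table deposited by the authors pairs counts with FPKM, per the file headers. No test used TPM or FPKM. The submitters' processing notes name Cuffdiff, Cufflinks 2.1.1, TopHat2 2.0.9 and CASAVA 1.8, and list the mouse build mm10 with no role. The sources used here give neither the tool and catalogue behind the miRNA counts nor molecular identifiers, so Wilson intervals and floors cover counting error only. The intervals of log2 fold changes and arm ratios include the spread between libraries.

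Groups came from the sample titles. Counts were fitted with edgeR 4.0.16 in R 4.3.3 (TMM, filterByExpr, quasi-likelihood test, no covariate), with Benjamini-Hochberg adjustment over all 525 tested rows of the miRNA table. Levels are CPM on TMM-scaled totals of the tested rows. Arm ratios were fitted with limma 3.58.1 over all 152 hairpins with a mean of at least 10 counts in both arms. Shares were compared with two-sided exact permutation tests over libraries. Named members were the 12 with the highest mean level, the 5 with the smallest unadjusted p in each direction, the 3 on each side of the filter on low counts, and rows with a shared seed. For arm ratios they were the 5 hairpins at each end and the 3 with the smallest p. Rows and hairpins outside this rule were named with their values in view. The members and lists were chosen with earlier results of these data known. The code was tested on simulated data. Replicates differed by far more than sampling noise, with a chi-square of 36.5 or more for each degree of freedom, so each was counted as 1 sample. The alternatives were DESeq2 1.42.0, RLE size factors, tests without the low-count filter, a block for replicate number, fits that leave out 1 library, other totals for the shares, and other pseudocounts, minimums and weights for the arm ratios.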

Additional observations from a re-analysis of the deposited data

How the results depend on the processing

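Under every alternative run, no member and no arm ratio of the cluster passed an adjusted p of 0.05, and an unadjusted p under 0.05 as the threshold gave 1 member (0 to 2 when 1 library was left out). Over the whole miRNA table DESeq2 called 7 rows and the fit without ARM replicate 6 called 3, none of them members. The small difference in the share of the cluster changed sign to 0.0853 percentage points with miR-9a-5p left out of the total and to 576 CPM as summed CPM, and those of the Rtl1-antisense side to 0.0635 percentage points and 419 CPM and of the distal stretch to 0.0403 percentage points and 293 CPM; the cause was not tested. Leaving out 1 library at a time moved the share difference between -0.338 and 0.190 percentage points for the cluster, -0.201 and 0.147 for the Rtl1-antisense side, -0.100 and 0.0984 for the distal stretch, -0.0626 and 0.0303 for the middle, and -0.00026 and 0.0103 for the Meg3 side. The same step moved log2 fold changes across 0 for miR-127-3p (-0.026 to 0.092), miR-434-5p (-0.049 to 0.041), miR-434-3p (-0.16 to 0.078), miR-300-3p (-0.056 to 0.048), miR-370-3p (-0.083 to 0.098), miR-341 (-0.24 to 0.040), miR-323-3p (-0.16 to 0.00045), miR-433-3p (-0.080 to 0.086), miR-411-5p (-0.023 to 0.091), miR-487b-3p (-0.20 to 0.0068), miR-381-3p (-0.23 to 0.12) and miR-540-5p (-0.28 to 0.52). It moved others by over 1.5 times without a change of sign, namely miR-376a-3p (-0.53 to -0.084), miR-673-5p (0.16 to 0.45), miR-431 (0.065 to 0.20), miR-412-3p (-0.38 to -0.14), miR-539-3p (-0.33 to -0.12), miR-380-3p (-0.17 to -0.045), miR-494-5p (-0.52 to -0.085), miR-134-5p (0.070 to 0.15), miR-379-5p (0.0083 to 0.099) and miR-541-5p (0.0023 to 0.16). Arm ratio differences crossed 0 for miR-411 (-0.011 to 0.11), miR-541 (-0.078 to 0.060), miR-300 (-0.012 to 0.32), miR-370 (-0.16 to 0.31) and miR-543 (-0.064 to 0.18), and moved likewise without crossing it for miR-134 (0.0018 to 0.31), miR-337 (0.061 to 0.40), miR-379 (0.040 to 0.20), miR-494 (-0.60 to -0.19) and miR-323 (0.15 to 0.33). The libraries with the same replicate number did not deviate together over 518 rows of the whole miRNA table, with correlations of -0.05, -0.11 and -0.03. Over these rows no ARM library correlated best with the normal library of its own number. Within the cluster, 60 of the 79 tested members lay above their mean over the 6 libraries in ARM replicate 4 and 19 below. The counts were the same in normal replicate 4. The labels do not say what the number stands for, and a shared batch or litter was not tested. Among the lncRNAs none of the Meg3 rows passed under any alternative run. With the replicate number as a block 0 members passed the adjusted threshold and 0 the unadjusted one, and the share difference of the cluster was -0.0451 percentage points (exact sign-flip permutation, p = 0.75, smallest possible p 0.25). With 3 libraries a group the shares could not reach a p below 0.1, and the 3 rows nearest to the low-count filter, with means of 14.0 to 26.5 counts, had standard errors of 0.32 to 0.56.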
